A study of Mus musculus with 54 samples.

Results

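The 33 proliferation genes described here are the standard transcript markers of dividing cells, and they were taken by symbol from the count tables of mouse liver, kidney and quadriceps muscle, where 33 of 55471 listed genes matched. They comprise 9 genes of DNA replication, 22 genes of G2 phase and mitosis, and the transcription factors Foxm1 and E2f1. All mice were C57BL/6J, of both sexes, with no transgene or deletion named in the labels. The corylin groups were 130 weeks old and received food containing corylin, which is a flavonoid compound from Psoralea corylifolia. The old groups were 130 weeks old and received the control diet, and the young groups were 50 weeks old. The labels describe the feeding as long-term and give no dose or duration. Each tissue had 6 groups, with 3 animals per sex and condition, and 17 of the 18 animals gave all 3 tissues. The liver of corylin male 1 was not analysed here, so male corylin liver rests on 2 libraries. Poly(A) RNA was sequenced from whole tissue, so that fewer dividing cells and less RNA per dividing cell cannot be told apart.

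Liver libraries held 9031719 to 16610500 assigned counts, kidney libraries 8687606 to 23190258 and quadriceps libraries 13249604 to 19695468. The tissue labels held against defining markers: 9 hepatocyte genes summed to 68111 to 121183 in counts-per-million units (CPM, TMM-scaled) in liver, 8 muscle fibre genes to 81583 to 168321 CPM in quadriceps, and 7 proximal tubule genes to 4778 to 10848 CPM in kidney. The proliferation genes themselves were scarce, where all 33 together drew 629 to 4462 reads per liver library, 1620 to 4304 per kidney library and 921 to 1988 per quadriceps library. The median member averaged 19.9 reads per library in liver, 31.3 in kidney and 5.72 in quadriceps. After a filter on low counts 33 members were tested in liver, 32 in kidney, where Bub1 was too low, and 15 in quadriceps. No member was at 0 in every library. In liver 1 library stood apart, that of corylin male 3, whose median correlation with the other liver libraries was 0.913. It was the highest of the 17 liver libraries for 33 of 33 members, and the liver counts below are given with and without it. Old female 2 had the lowest such correlation in kidney, 0.943, and old female 3 in quadriceps, 0.897, against highest values of 0.974 in both tissues.

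A cell that divides copies its DNA in S phase and separates the copies in mitosis. Mcm2 to Mcm7 encode the helicase that is loaded onto origins of replication, Pcna the sliding clamp of the DNA polymerases, and Rrm2 and Tyms enzymes that make deoxynucleotides. In G2 phase and mitosis Cdk1 acts with the cyclins Ccna2, Ccnb1 and Ccnb2, the kinases Aurka, Aurkb and Plk1 drive spindle assembly and chromosome segregation, and Birc5 works with Aurkb. Bub1, Bub1b, Cenpe and Cenpf act at kinetochores, while Kif11, Kif20a, Kif23, Nusap1, Prc1 and Tpx2 build the spindle and the midzone where the cell is cut apart. Cdc20 and Ube2c serve the anaphase-promoting complex, Top2a untangles DNA and Mki67 coats mitotic chromosomes. Most hepatocytes, tubule cells and muscle fibres of adult mice are not dividing.

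G2 and mitosis genes are known to be held off in resting cells by a repressor complex that binds a short element called the cell cycle homology region (CHR), commonly with CCAAT boxes nearby, whereas many replication genes carry E2F sites. Members with a listed promoter were ranked by their smallest p in any tissue for old against young mice, averaged over the sexes, as tested below. Among the top members, Nusap1 held none of these elements as searched here and is not shown. The promoters of the other 5 are shown, and they carry the elements in different combinations. Each runs 5′ to 3′ on the gene's strand from 250 bases before to 50 bases after the start (RefSeq, GRCm38.p6), with matches in capitals. On both strands the search took TTTGAA and, as the other form of the CHR, TTCGAA. The box was CCAAT. For E2F the accepted letters were TTCCCGC, with the variants TTGGCGC, then also TTCGCGC and finally the form TTGCCGC. None of these motifs contains another. Mki67 lies at chr7:135716330-135716629, Top2a at chr11:99024140-99024439, Kif23 at chr9:61946750-61947049, Cdk1 at chr10:69352863-69353162 and Pcna at chr2:132253131-132253430, all on the minus strand.
Mki67: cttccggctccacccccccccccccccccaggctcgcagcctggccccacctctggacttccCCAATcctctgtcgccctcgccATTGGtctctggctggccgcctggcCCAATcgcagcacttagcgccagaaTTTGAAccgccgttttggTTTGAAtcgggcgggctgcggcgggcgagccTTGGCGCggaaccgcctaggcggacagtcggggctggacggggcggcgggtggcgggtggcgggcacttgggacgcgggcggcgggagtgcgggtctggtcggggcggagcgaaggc
Top2a: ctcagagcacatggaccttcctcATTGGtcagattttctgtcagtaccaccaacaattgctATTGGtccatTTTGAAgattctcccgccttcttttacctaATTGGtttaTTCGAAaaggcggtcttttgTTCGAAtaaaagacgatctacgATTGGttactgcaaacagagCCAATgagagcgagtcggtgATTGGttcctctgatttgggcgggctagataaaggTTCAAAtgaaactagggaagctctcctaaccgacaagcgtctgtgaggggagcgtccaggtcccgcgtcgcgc
Kif23: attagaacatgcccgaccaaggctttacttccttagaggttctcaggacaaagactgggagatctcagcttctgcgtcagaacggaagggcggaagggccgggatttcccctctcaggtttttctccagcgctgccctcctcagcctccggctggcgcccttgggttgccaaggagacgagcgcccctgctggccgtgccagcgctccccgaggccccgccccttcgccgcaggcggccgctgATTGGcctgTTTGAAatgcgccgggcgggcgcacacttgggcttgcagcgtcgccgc
Cdk1: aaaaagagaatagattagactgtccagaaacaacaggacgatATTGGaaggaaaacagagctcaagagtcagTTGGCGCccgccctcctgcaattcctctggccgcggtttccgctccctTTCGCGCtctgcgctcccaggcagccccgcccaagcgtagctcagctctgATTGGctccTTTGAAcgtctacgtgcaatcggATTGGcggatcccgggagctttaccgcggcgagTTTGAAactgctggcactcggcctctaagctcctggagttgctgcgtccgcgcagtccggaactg
Pcna: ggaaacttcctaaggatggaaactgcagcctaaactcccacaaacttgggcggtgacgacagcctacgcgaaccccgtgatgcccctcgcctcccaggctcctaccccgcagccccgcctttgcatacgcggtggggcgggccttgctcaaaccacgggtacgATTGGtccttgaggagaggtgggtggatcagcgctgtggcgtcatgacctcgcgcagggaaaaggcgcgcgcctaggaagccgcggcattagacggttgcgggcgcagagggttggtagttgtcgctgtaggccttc
The Mki67 and Cdk1 windows held all 3 kinds of match, Top2a and Kif23 the CHR and CCAAT letters without E2F, and Pcna the CCAAT letters alone. A promoter was listed for 27 of the 33 members. A CHR match stood in 77.8% of the 18 listed G2 and mitosis members and in 25% of the 8 listed replication members, against 21.7% of all 27025 genes with a promoter. E2F letters stood in 16.7% of the listed G2 and mitosis members, in 62.5% of the replication members and in 10.9% of all genes. CCAAT letters were present in 88.9% of the G2 and mitosis members, in 87.5% of the replication members and in 41.1% of all genes. These are letter matches in a 300-base window, and Nusap1, Birc5, E2f1 and Tyms had none of them.

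The first question was how the genes differed between 130-week and 50-week livers. Averaged over the sexes, 11 of 33 members rose in old livers and none fell, and all 11 were G2 and mitosis genes (edgeR quasi-likelihood test, Benjamini-Hochberg adjusted over all 15158 genes tested). Of all genes, 10.9% rose and 8.27% fell in the same comparison. The called genes included the midzone motor Kif23, the chromosome coat gene Mki67, the DNA untangling enzyme Top2a and the spindle gene Nusap1, and 0 of the 9 replication genes passed, with 3 at an unadjusted p under 0.05 (34% of all genes) and 2, Mcm2 and Mcm5, called by DESeq2. DESeq2 called 18 members in all (23% of all genes). Over the 22 G2 and mitosis members the median log2 fold change was 1.79, over the 9 replication members 0.45 and over all genes tested -0.02. Of the 33 members, 32 had a fold change above 0, the exception being the thymidylate synthase gene Tyms at -0.20.

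Mki67, the most used marker of cycling cells, stood at 6.67, 5.38 and 6.02 CPM in old females, against 2.05, 0.909 and 1.2 CPM in young females. In males it was 3.43, 3.73 and 6.08 CPM in old livers, against 0.766, 0.936 and 0.581 CPM in young livers. Every old library of either sex was above every young library of either sex. The log2 fold change was 2.33 ± 0.54 (SE, adjusted p = 0.0122). Top2a had 3.56, 2.65 and 2.82 CPM in old females, against 1.1, 0.606 and 0.567 CPM in young females. Old males had 2.43, 1.41 and 4.54 CPM and young males 0.287, 0.351 and 0.498 CPM. The old and young livers again did not overlap, and the log2 fold change was 2.41 ± 0.72 (adjusted p = 0.0327).

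Kif23 had 2.1, 2.03 and 1.02 CPM in old females, against 0.439, 0.0757 and 0 CPM in young females. In males it had 0.811, 0.984 and 2.34 CPM in old livers, against 0.287, 0.117 and 0 CPM in young livers. All old livers were above all young ones. Its log2 fold change was 3.30 ± 0.79 (adjusted p = 0.0129). Nusap1 had 0.952, 0.97 and 0.782 CPM in old females, against 0.366, 0.227 and 0.441 CPM in young females. In males it had 0.935, 0.633 and 0.805 CPM in old livers, against 0.191, 0 and 0.0829 CPM in young livers. These groups did not overlap either, and the log2 fold change was 2.14 ± 0.53 (adjusted p = 0.0149).

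By role, 4 of the 6 spindle and cytokinesis genes rose, adding Prc1, the midzone crosslinker (log2 fold change 2.12 ± 0.63, adjusted p = 0.0304), and Kif20a, a midzone kinesin (1.34 ± 0.42, 0.0404). The anaphase-promoting complex partners Ube2c (1.84 ± 0.52, 0.0251) and Cdc20 (1.58 ± 0.50, 0.0387) both rose. Of the 4 mitotic kinase and passenger genes only Aurkb passed (2.43 ± 0.79, 0.0449), and of the 4 cyclin and Cdk1 genes none did, with values from 0.67 to 2.0. The kinetochore genes Cenpe (3.89 ± 1.02, 0.021) and Bub1 (3.98 ± 1.24, 0.0416) rose, but young females had no read of either gene, so these fitted values depend on the prior count. Against a floor of 3 counts over the 3 young female libraries, Cenpe was at least 7.15-fold higher in old females (20 counts against 0) and Bub1 at least 5.72-fold higher (16 counts against 0). Among males Bub1 was 6.36-fold higher in old livers, with a counting interval from 1.52 to 56.5 (exact, 95%). Young males also had few reads of Nusap1 and Aurkb. Nusap1 was 8.25-fold higher in old males (35 counts against 3, interval 2.6 to 41.9) and Aurkb 9.43-fold (40 against 3, 3 to 47.6). The intervals and floors here cover counting error only.

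Per library, Prc1 had 1.65, 1.06 and 1.02 CPM in old females, against 0.366, 0.151 and 0.189 CPM in young females, and 0.436, 0.844 and 0.952 CPM in old males, against 0, 0.351 and 0.249 CPM in young males. Ube2c had 0.762, 1.06 and 1.49 CPM in old females, against 0.293, 0.303 and 0.189 CPM in young females, and 0.686, 0.562 and 1.76 CPM in old males, against 0.383, 0.117 and 0.415 CPM in young males. Every old liver was above every young liver for both genes. Cenpe had 0.825, 0.617 and 0 CPM in old females, against 0 CPM in all 3 young females, and 0.561, 0.562 and 0.879 CPM in old males, against 0.191, 0 and 0.249 CPM in young males. Old female 3 had no Cenpe read, so the old and young females overlapped. Cdk1 had 1.4, 0.441 and 1.17 CPM in old females, against 0.805, 0.227 and 0.756 CPM in young females, and 1.5, 0.914 and 2.27 CPM in old males, against 1.05, 1.52 and 0.581 CPM in young males. The Cdk1 ranges overlapped in both sexes (log2 difference 0.67 ± 0.52, adjusted p = 0.392). Its partner cyclin Ccnb1 had 0.698, 0.794 and 0.782 CPM in old females, against 0.512, 0.151 and 0.063 CPM in young females, and 0.436, 0.492 and 1.17 CPM in old males, against 0.191, 0 and 0.166 CPM in young males. Ccnb1 did not overlap within either sex but did not pass (2.0 ± 0.70, adjusted p = 0.0587). Without corylin male 3 it passed (2.01 ± 0.56, adjusted p = 0.0159).

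Among the replication genes Pcna, the clamp, had 27.6, 25.1 and 28.9 CPM in old females, against 23.2, 27.2 and 24.2 CPM in young females. Old males had 28.6, 24.8 and 26.5 CPM and young males 25.4, 22 and 26 CPM. The ranges overlapped in both sexes, and the log2 difference was 0.13 ± 0.11 (adjusted p = 0.456). The helicase gene Mcm2 had 7.11, 7.32 and 3.44 CPM in old females, against 2.85, 2.35 and 1.76 CPM in young females, with no overlap. Among males it had 3.74, 3.23 and 4.61 CPM in old livers, against 4.02, 2.11 and 2.24 CPM in young livers, with overlap. Its log2 difference over both sexes was 0.91 ± 0.34 (adjusted p = 0.0725). Mcm5 had the largest replication value, 1.68 ± 0.57 (adjusted p = 0.0542), and was higher in all 6 old than in all 6 young livers. With corylin male 3 left out, Mcm2 (0.92 ± 0.25, adjusted p = 0.013) and Mcm5 (1.69 ± 0.35, 0.00284) passed.

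**Figure D1:**
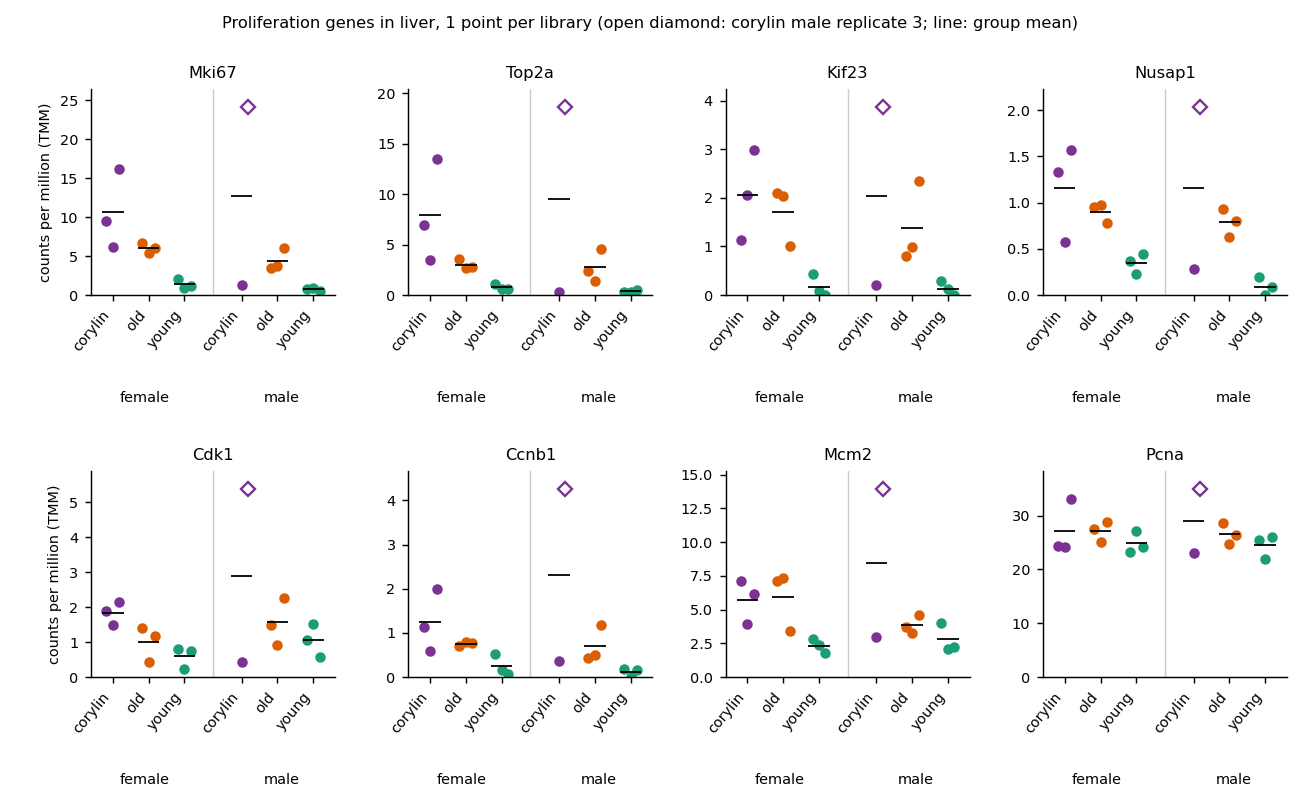
CPM (TMM scale, linear axis) of 8 members in each liver library, with corylin, old and young groups of females and then males from left to right. Points are libraries, short lines group means and open diamonds corylin male 3. Old livers stand above young livers for Mki67, Top2a, Kif23 and Nusap1, while Pcna spans 22 to 34.9 CPM over all libraries, and corylin male 3 is the top point in every panel.

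Taken by sex, the 3-against-3 comparisons passed for 0 of 33 members in either sex by edgeR, where 9.27% of all genes were called in females and 0.211% in males. At an unadjusted p under 0.05, 12 members were higher in old females (15.6% of all genes) and 8 in old males (10.2%), and DESeq2 called 7 and 3 (15.9% and 6.25%). The smallest p in females belonged to Cenpe (adjusted p = 0.053) and Kif23 (3.30 ± 1.06, adjusted p = 0.0631), and in males to Nusap1 (2.93 ± 0.84, 0.104) and Mki67 (2.54 ± 0.81, 0.126). The median log2 fold change of the members was 1.36 in females and 1.37 in males. The floors of Bub1 and Cenpe, at log2 values of 2.52 and 2.84, lie above the female median, so using them could not move it. In females 23 of 33 members were higher in every old than in every young library, against 18.5% of all genes, and in males 18 of 33, against 15.2%. Pooling the sexes, 11 of 33 did so, against 6.17% of all genes, and no member was lower in every old library in any of these comparisons. The difference of the age effect between females and males passed for 0 of 33 members by edgeR and by DESeq2 (0% and 0.877% of all genes), with 1 member, E2f1, at an unadjusted p under 0.05, where 8.62% of all genes were (difference 1.43 ± 0.50, adjusted p = 0.395). Without corylin male 3 it passed for 0 members (0.0726% of all genes), with 1 at an unadjusted p under 0.05 (10.7%). That test does not show that the sexes change alike.

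The liver fit shares 1 estimate of spread over its 6 groups, so corylin male 3 enters the tests of old against young although it belongs to neither. Without it, 15 of 33 members rose in old females (11.7% of all genes), 6 in old males (5.92%) and 21 over both sexes (14.3%). Mki67 then had a log2 fold change of 2.14 ± 0.38 in females (adjusted p = 0.00188) and 2.54 ± 0.43 in males (adjusted p = 0.00312). Over both sexes Top2a then stood at 2.42 ± 0.41 (adjusted p = 0.000667), Kif23 at 3.31 ± 0.62 (0.00135), Nusap1 at 2.15 ± 0.42 (0.00186) and Prc1 at 2.13 ± 0.44 (0.00256). With it, leaving out each old or young library in turn gave 4 to 11 members over both sexes. The other corylin livers were not left out in this comparison. The lowest counts came without old male 3, young female 2 or young female 3, at 4 members each. Mki67, Kif23, Nusap1 and Cenpe were called in 13 of 13 fits that left out 1 library, corylin male 3 among them, and the other 7 called genes in 2 to 9 of 13.

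Of the 33 members, 8 overlap another protein-coding gene, and the strand setting of the counting is not given in the sources used here. Prc1 shares 21810 bases with Rccd1 on the opposite strand, which had 2.5 to 4.24 CPM in liver, above Prc1 itself in most libraries. Kif20a shares 2327 bases with Cdc23, also on the opposite strand, at 8.31 to 16.9 CPM. Neither partner passed in old livers over both sexes (log2 differences -0.06, adjusted p = 0.855, and 0.03, adjusted p = 0.909). Cdc20 shares 53 bases with Elovl1, which rose (0.50, adjusted p = 0.00939). Nusap1 shares 172 bases with Oip5, at most 0.982 CPM, and Ube2c overlaps Tnnc2, at most 0.586 CPM in liver. Ccna2, called below in kidney, shares 863 bases with Exosc9 on the opposite strand, which had 13.1 to 19.9 CPM in kidney. Reads of each pair cannot be told apart where the genes overlap, so the values of these members are uncertain to that extent.

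Markers of some blood cells differed along with these genes. Macrophage and monocyte markers rose for 11 of 12 genes in old livers over both sexes, neutrophil markers for 6 of 6, granulocyte precursor markers for 7 of 8 and T and NK cell markers for 4 of 9. The share of all genes that rose in this comparison is given above. The summed macrophage and monocyte level was 1437 to 2172 CPM in old females, against 312.4 to 450.2 CPM in young females. In males it was 1058 to 2147 CPM in old livers, against 233.4 to 331.9 CPM in young livers. No gene of these 4 lists was at 0 in every library. Granulocyte precursor markers summed to 25.5 to 163.4 CPM in old females and to 0.439 to 0.681 CPM in young females. Erythroid precursor markers were lower in old males, at 33 to 38.7 CPM, against 64.8 to 92.2 CPM in young males. In females they summed to 18.2 to 23.9 CPM in old livers, against 15.1 to 17.2 CPM in young ones. B cell and plasma cell sums overlapped between old and young livers in both sexes. The part of these cells in the proliferation result was not tested.

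The second question was whether old mice on corylin differed from old mice on the control diet. In liver 0 of 33 members passed by edgeR in females, in males or over both sexes, where 0.152%, 0.0594% and 1.07% of all genes were called. In females 2 members reached an unadjusted p under 0.05 (15.8% of all genes), in males 13 (10.7%) and over both sexes 15 (19.1%). DESeq2 called 0 members in either sex (3.75% of all genes in females and 0.884% in males) and 1 over both sexes (5.03%), E2f1, the S phase transcription factor. The median log2 difference of the members was 0.66 in females, 1.22 in males and 0.95 over both sexes, against 0.03, 0.07 and 0.06 for all genes tested.

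The male values rest on which of the 2 corylin livers is read. Mki67 had 1.35 CPM in corylin male 2 and 24.1 CPM in corylin male 3, against 3.43, 3.73 and 6.08 CPM in old males. Top2a had 0.355 and 18.6 CPM in the same corylin livers, against 2.43, 1.41 and 4.54 CPM in old males. Corylin male 2 lay below every old male and corylin male 3 above every old male for both genes. Without corylin male 3, 0 of 33 members were called in males (0.0198% of all genes higher and 0.0396% lower), 29 of 33 were below 0 and the median was -0.90. Without corylin male 2, 22 of 33 were called higher (7.85% of all genes), 33 of 33 were above 0 and the median was 2.01. Each of these fits leaves 1 corylin male, whose spread is taken to equal that of the other groups. Over both sexes the median was -0.20 without corylin male 3, with 22 of 33 members below 0 and 0 called (1.62% of all genes higher and 1.05% lower). When corylin male 2 was left out instead, 33 of 33 members were above 0 and 24 were called (7.67% of all genes higher).

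**Figure D2:**
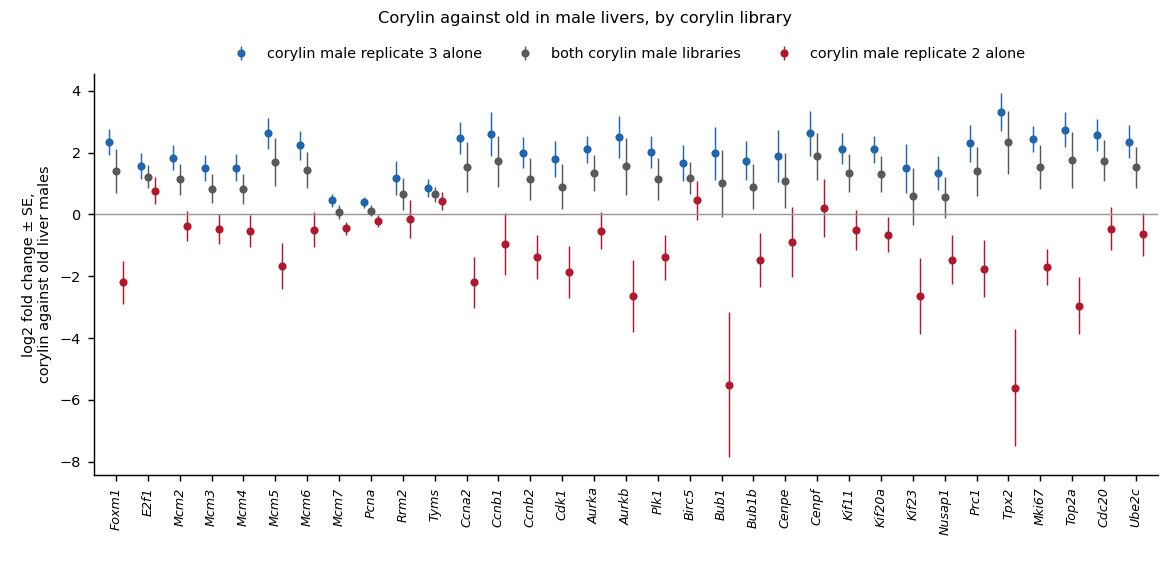
Log2 fold change of each member in corylin male livers over old male livers, with corylin male 3 alone (blue), both corylin males (grey) and corylin male 2 alone (red). With corylin male 3 alone 33 of 33 members lie above 0, and with corylin male 2 alone 29 of 33 lie below 0.

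The same held for the other markers read library by library. Cdk1 had 0.426 and 5.37 CPM in corylin males 2 and 3, against 1.5, 0.914 and 2.27 CPM in old males. Ccnb1 had 0.355 and 4.25 CPM, against 0.436, 0.492 and 1.17 CPM. Mcm2 had 2.98 and 13.9 CPM, against 3.74, 3.23 and 4.61 CPM, and Pcna had 23.1 and 34.9 CPM, against 28.6, 24.8 and 26.5 CPM. For all 4 genes corylin male 2 was below and corylin male 3 above the old males.

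Over all members corylin male 3 was above every old male for 33 of 33. Corylin male 2 was below every old male for 23, within their range for 8 (Mcm6, Rrm2, Aurka, Birc5, Cenpf, Kif20a, Cdc20 and Ube2c) and above every old male for 2, E2f1 and Tyms. E2f1 had 4.75 and 8.18 CPM in corylin male livers 2 and 3, against 2, 1.9 and 4.47 CPM in old males. In females it had 5.13, 3.66 and 4.63 CPM with corylin, against 3.37, 2.47 and 2.19 CPM in old livers. Every corylin library was above every old library of the same sex. The log2 difference over both sexes was 0.98 ± 0.25 (adjusted p = 0.0716) with all libraries and 0.75 ± 0.27 (adjusted p = 0.141) without corylin male 3. Tyms, thymidylate synthase, had 3.97 and 5.3 CPM in corylin males, against 2.74, 3.23 and 2.86 CPM in old males. Corylin females had 4.05, 3.73 and 3.78 CPM and old females 3.49, 2.56 and 2.58 CPM. Tyms was the 1 member of 33 whose 5 corylin livers were all above its 6 old livers, where 0.792% of all genes were, and its log2 difference was 0.54 ± 0.17 (adjusted p = 0.119), and 0.42 ± 0.19 (adjusted p = 0.219) without corylin male 3.

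In female livers Mki67 had 9.5, 6.17 and 16.2 CPM with corylin, against 6.67, 5.38 and 6.02 CPM in old females. Top2a had 6.97, 3.47 and 13.5 CPM, against 3.56, 2.65 and 2.82 CPM. Corylin female 3 was the top female library for both genes, and corylin and old livers overlapped for Mki67. B cell markers summed to 142.6, 17.4 and 519 CPM in corylin females 1 to 3, against 6.53 to 32.8 CPM in old females, and T and NK cell markers to 66.4, 25.9 and 64.7 CPM, against 16.5 to 25.3 CPM. No gene of either list passed by edgeR, while 8 of 8 and 6 of 9 were higher at an unadjusted p under 0.05. The share of all genes at that level, in either direction, is given above. The order of the B cell sums in corylin females was that of Mki67, and that of the T and NK cell sums was not. The part of these cells was not tested. Besides E2f1 and Tyms, the kinases Cdk1 and Aurkb and the ubiquitin enzyme gene Ube2c were higher in all 3 corylin than in all 3 old female livers, 5 of 33 members in all against 10% of all genes. The smallest unadjusted p in females belonged to the helicase gene Mcm4, with a log2 difference of 1.07 ± 0.46 (adjusted p = 0.272). Leaving out corylin female 3 lowered the female median to 0.23. Without corylin male 3, which is not part of this comparison, 0 members passed in females (0.917% of all genes), 7 were at an unadjusted p under 0.05 (18.9%) and the median was 0.66. Ccnb1 had 1.14, 0.579 and 1.99 CPM with corylin, against 0.698, 0.794 and 0.782 CPM in old females. Mcm2 had 7.09, 3.92 and 6.13 CPM, against 7.11, 7.32 and 3.44 CPM, and Pcna 24.3, 24.2 and 33.2 CPM, against 27.6, 25.1 and 28.9 CPM. These 3 genes overlapped between the groups, while Cdk1, at 1.9, 1.48 and 2.14 CPM with corylin, against 1.4, 0.441 and 1.17 CPM in old females, did not (0.84 ± 0.70, adjusted p = 0.606). The difference of the corylin effect between females and males passed for 0 of 33 members by edgeR (0% of all genes) and by DESeq2 (0.198%), with 0 at an unadjusted p under 0.05 (6.81%). Its median was -0.66 with all libraries and 1.65 without corylin male 3, where 0 members passed (0% of all genes) and 13 were at an unadjusted p under 0.05 (9.74%).

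Marker sums of corylin male 3 stood apart too. Its macrophage and monocyte markers summed to 4930 CPM, against 354.7 CPM in corylin male 2 and 1058 to 2147 CPM in old males. Fetal or tumour liver markers summed to 53.1 CPM in corylin male 3 and 4.61 CPM in corylin male 2, against 4.71 to 7.76 CPM in old males. The same list reached 6.3 to 63.9 CPM in corylin females, against 7.3 to 15.1 CPM in old females, and in corylin females 27.9, 2.7 and 56.6 CPM of it came from Cd24a. T and NK cell markers summed to 55.3 and 13.3 CPM in corylin males 3 and 2, against 6.12 to 18 CPM in old males. The part of these markers in the proliferation values was not tested. The other tissues of the animal behind that liver were not high: its 33 members summed to 183.8 CPM in kidney, where old males had 172.1 to 190.5 CPM, and to 71 CPM in quadriceps, where old males had 78.3 to 93.5 CPM.

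**Figure D3:**
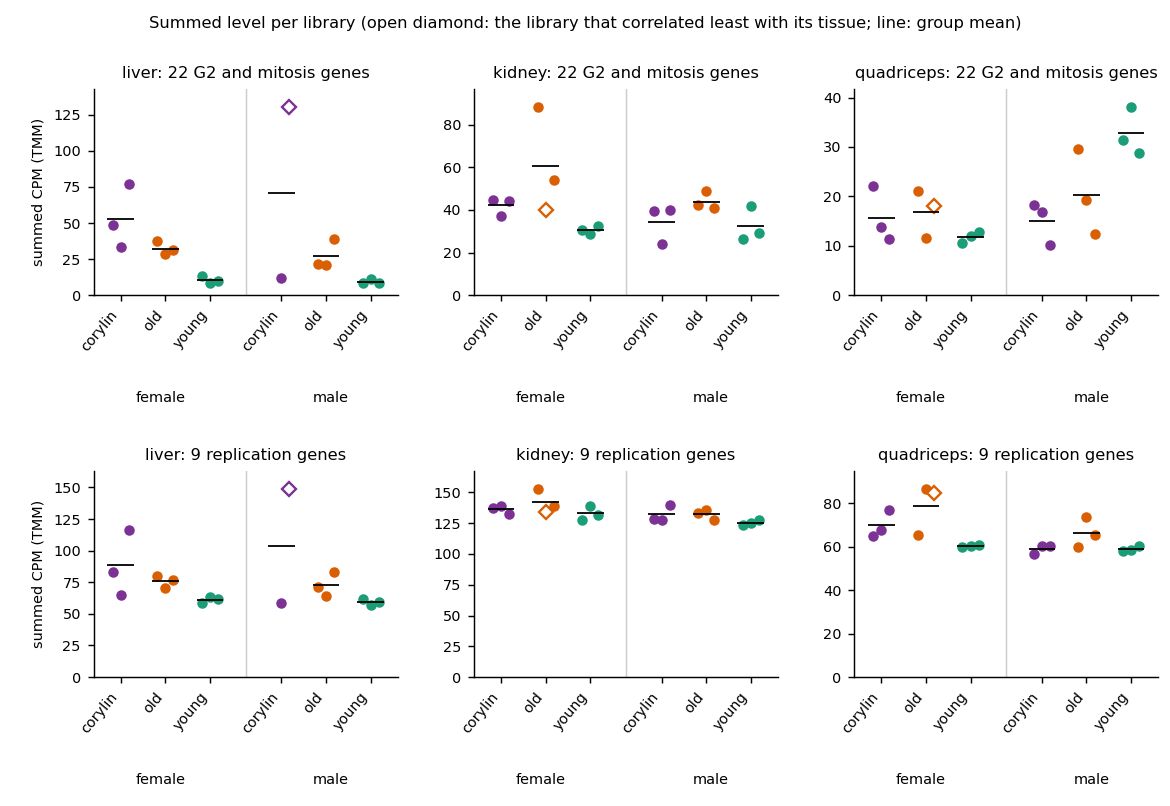
Summed CPM (TMM scale) of the 22 G2 and mitosis members (top) and the 9 replication members (bottom) in every library of liver, kidney and quadriceps, with corylin, old and young groups from left to right within each sex. Lines are group means and open diamonds the library least correlated with the rest of its tissue. The G2 and mitosis sum is 28.3 to 37.2 CPM in old female livers and 8.48 to 13.4 CPM in young ones, and 130.2 CPM in corylin male 3.

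In kidney the same question of age gave 8 members that rose in old females and none that fell (edgeR, 17174 genes tested), where 7.69% of all genes rose. The genes were Cdk1, the spindle assembly factor Tpx2, Mki67, Aurkb, Birc5, Ccna2, Top2a and E2f1. At an unadjusted p under 0.05, 4 of the 9 replication genes differed in females (24.2% of all genes), Mcm3, Mcm5 and Mcm6 higher and Mcm7 lower. Of the 9 replication genes 0 passed in females by edgeR and 0 by DESeq2. Their median log2 fold change was 0.15, against 1.06 for the 21 G2 and mitosis members tested. Over both sexes 7 members rose (6.64% of all genes), all of them G2 and mitosis genes. These were Aurkb, Mki67, Cdk1, Top2a, Tpx2, Ccna2 and the spindle kinesin Kif11. DESeq2 called 11 members in females (13.6% of all genes) and 10 over both sexes (11%), of which 2 were replication genes, Mcm5 and Mcm3.

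Cdk1 had 3.53, 1.2 and 1.81 CPM in old female kidneys, against 0.258, 0.467 and 0.52 CPM in young ones. Tpx2 had 2.43, 1.48 and 1.76 CPM, against 0.194, 0.292 and 0.636 CPM. Mki67 had 12.9, 4.91 and 7.14 CPM, against 3.03, 2.1 and 2.08 CPM. For each of these genes every old female kidney was above every young one, and old female 1 was the highest. The log2 fold changes in females were 2.36 ± 0.47 for Cdk1 (adjusted p = 0.00395), 2.30 ± 0.47 for Tpx2 (0.00444) and 1.79 ± 0.40 for Mki67 (0.0078). Aurkb, the kinase of the chromosomal passenger complex, had 3.58, 1.43 and 1.12 CPM in old females, against 0.387, 0.292 and 0.636 CPM in young females. In male kidneys Aurkb had 1.29, 0.835 and 0.868 CPM in old mice, against 0.425, 0.557 and 0.279 CPM in young males. Aurkb was above the young range in all 6 old kidneys, with a log2 fold change over both sexes of 1.71 ± 0.38 (adjusted p = 0.00868).

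Birc5, the partner of Aurkb, had 2.77, 2.11 and 2.15 CPM in old female kidneys, against 1.03, 1.05 and 1.27 CPM in young ones (log2 fold change 1.06 ± 0.26, adjusted p = 0.0144). The cyclin gene Ccna2 had 4.74, 2.97 and 3.18 CPM in old females, against 1.48, 1.75 and 1.85 CPM in young females (1.09 ± 0.29, 0.0211). Top2a had 9.3, 3.37 and 3.62 CPM, against 1.81, 1.98 and 1.39 CPM (1.65 ± 0.44, 0.0231). All 3 genes were above the young range in every old female kidney. Ccnb1 was too, at 1.85, 0.971 and 1.66 CPM, against 0.581, 0.233 and 0.462 CPM, but did not pass (1.81 ± 0.59, adjusted p = 0.0614). Mcm2 had 18, 17 and 12 CPM in old females, against 12.5, 14.4 and 14.4 CPM in young females, and Pcna 39.9, 41.7 and 43.6 CPM, against 38.3, 45 and 38.5 CPM. These replication genes overlapped between the groups, with log2 differences of 0.18 ± 0.17 (adjusted p = 0.544) and 0.04 ± 0.10 (adjusted p = 0.837).

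Male kidneys gave 0 of 32 members by edgeR and by DESeq2 (0.111% and 1.36% of all genes), with 2 at an unadjusted p under 0.05 (10.9% of all genes). Mki67 had 3.81, 5.52 and 5.09 CPM in old males, against 1.75, 5.43 and 2.29 CPM in young males. Young male 2 lay within the old range. Top2a had 2.35, 3.15 and 3.18 CPM in old males, against 0.956, 2.93 and 1.17 CPM in young males, Cdk1 0.953, 1.22 and 0.926 CPM, against 0.744, 1.35 and 0.558 CPM, and Ccnb1 0.449, 1.48 and 1.22 CPM, against 0.425, 1.53 and 0.335 CPM. Young male 2 was the highest young male for each of them. Mcm2 had 15, 16.6 and 15.1 CPM in old males, against 11.7, 12.5 and 13.8 CPM in young males, without overlap (0.29 ± 0.17, adjusted p = 0.574). Pcna had 40.9, 45.7 and 37.5 CPM, against 44.1, 41.8 and 39 CPM. The smallest p in males belonged to Kif23, with 9.92, 10.5 and 8.1 CPM in old males, against 4.73, 5.99 and 6.31 CPM in young males (0.75 ± 0.29, adjusted p = 0.336), and to Aurkb (1.22 ± 0.55, adjusted p = 0.419). The median log2 difference was 0.33 in males and 0.91 in females, but the difference between the sexes passed for 0 of 32 members by edgeR and by DESeq2 (0.0932% and 2.01% of all genes). At an unadjusted p under 0.05, 9 of 32 members differed between the sexes, against 14.5% of all genes, and the smallest p belonged to Cdk1 (2.15 ± 0.65, adjusted p = 0.168) and Tpx2 (2.11 ± 0.66, 0.171). In females 16 of 32 members were higher in every old kidney, against 13% of all genes, and 1, Mcm7, was lower in every old kidney, against 11.4%. In males 8 of 32 were higher, against 9.96% of all genes.

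Old female 1 was the highest of the 18 kidneys for 22 of 32 members. Without it 3 members rose in females and 2 over both sexes, whereas 18 and 14 did without old female 2. Leaving out a young female gave 3 to 5 members in females. Cdk1, Tpx2 and Mki67 were called in 6 of 6 such fits in females, and Aurkb and Mki67 in 12 of 12 over both sexes. Macrophage markers rose for 10 of 10 tested genes in old female kidneys, T and NK cell markers for 5 of 9 and injured tubule markers for 6 of 7. The share of all genes that rose in old female kidneys is given above. The macrophage and monocyte sum was 833.9 to 1154 CPM in old females, against 181.1 to 300.3 CPM in young females, and 318 to 424.3 CPM in old males, against 154.8 to 210.6 CPM in young males. Injured tubule markers summed to 3833 to 10295 CPM in old females, against 1663 to 2008 CPM in young females, with old female 1 the highest. In males the same sum was 1475 to 2384 CPM in old kidneys, against 1001 to 1164 CPM in young ones. Cholangiocyte markers summed to 9700, 6093 and 3559 CPM in old female kidneys 1 to 3. Injured tubule markers summed to 10295, 6205 and 3833 CPM there, so these sums do not tell those lists apart. No gene of the macrophage, T and NK cell or injured tubule lists passed in old against young males. The part of these cells in the proliferation result was not tested.

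Corylin kidneys showed no member past the test: 0 of 32 by edgeR and by DESeq2 in females, in males and over both sexes, where edgeR called 0.0582%, 0.0699% and 0.0641% of all genes and DESeq2 1.23%, 0.489% and 0.646%. In females 7 members reached an unadjusted p under 0.05 (12% of all genes), in males 1 (7.25%) and over both sexes 7 (9.63%). The median log2 difference was -0.48 in females, -0.18 in males and -0.40 over both sexes, against -0.01 to 0.01 for all genes, and 28 of 32 members were below 0 in females. Birc5, the passenger protein survivin, had the smallest p. It had 1.39, 0.953 and 1.03 CPM in corylin females, against 2.77, 2.11 and 2.15 CPM in old females, without overlap. Its log2 difference in females was -1.04 ± 0.27 (adjusted p = 0.14). E2f1 had 1.98, 2.19 and 2.12 CPM in corylin females, against 4.16, 3.94 and 3.47 CPM in old females, again without overlap (-0.88 ± 0.27, adjusted p = 0.202). Counted over members, 3 of 32 were lower in all corylin females, against 6.41% of all genes, and 1 was higher, against 5.83%. In males the smallest p belonged to Kif23, with 5.88, 3.01 and 5.67 CPM in corylin kidneys, against 9.92, 10.5 and 8.1 CPM in old ones (-0.97 ± 0.30, adjusted p = 0.448). Mki67 had 5.29, 4.29 and 5.85 CPM in corylin females, against 12.9, 4.91 and 7.14 CPM in old females, and Cdk1 had 1.16, 0.667 and 1.29 CPM, against 3.53, 1.2 and 1.81 CPM. Top2a had 2.96, 2.19 and 4.05 CPM, against 9.3, 3.37 and 3.62 CPM. These 3 genes overlapped between corylin and old females. The old females are also the upper group of the age comparison, so the 2 comparisons share those libraries. The difference of the corylin effect between the sexes passed for 0 of 32 members by edgeR (0.00582% of all genes) and by DESeq2 (0.349%), with 1 at an unadjusted p under 0.05 (9.95%).

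The other markers in corylin kidneys lay near or within the old range. Ccnb1 had 0.755, 1.05 and 0.707 CPM in corylin females, against 1.85, 0.971 and 1.66 CPM in old females, and 1.07, 0.54 and 1.82 CPM in corylin males, against 0.449, 1.48 and 1.22 CPM in old males. Mcm2 had 13.8, 15.7 and 10.3 CPM in corylin females, against 18, 17 and 12 CPM in old females, and 12.8, 14.7 and 11 CPM in corylin males, against 15, 16.6 and 15.1 CPM in old males. For Mcm2 the males did not overlap, with a log2 difference of -0.27 ± 0.17 (adjusted p = 0.776). Pcna had 39.3, 38.3 and 41.7 CPM in corylin females, against 39.9, 41.7 and 43.6 CPM in old females, and 43.9, 45.5 and 47.1 CPM in corylin males, against 40.9, 45.7 and 37.5 CPM in old males. Mki67 had 3.9, 2.08 and 3.18 CPM in corylin males, against 3.81, 5.52 and 5.09 CPM in old males. Pcna and Mki67 overlapped in these comparisons. Cdk1 had 1.12, 0.694 and 1.7 CPM and Top2a 3.37, 1.7 and 3.29 CPM in corylin males, against 0.953, 1.22 and 0.926 CPM and 2.35, 3.15 and 3.18 CPM in old males. Both again overlapped.

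**Figure D4:**
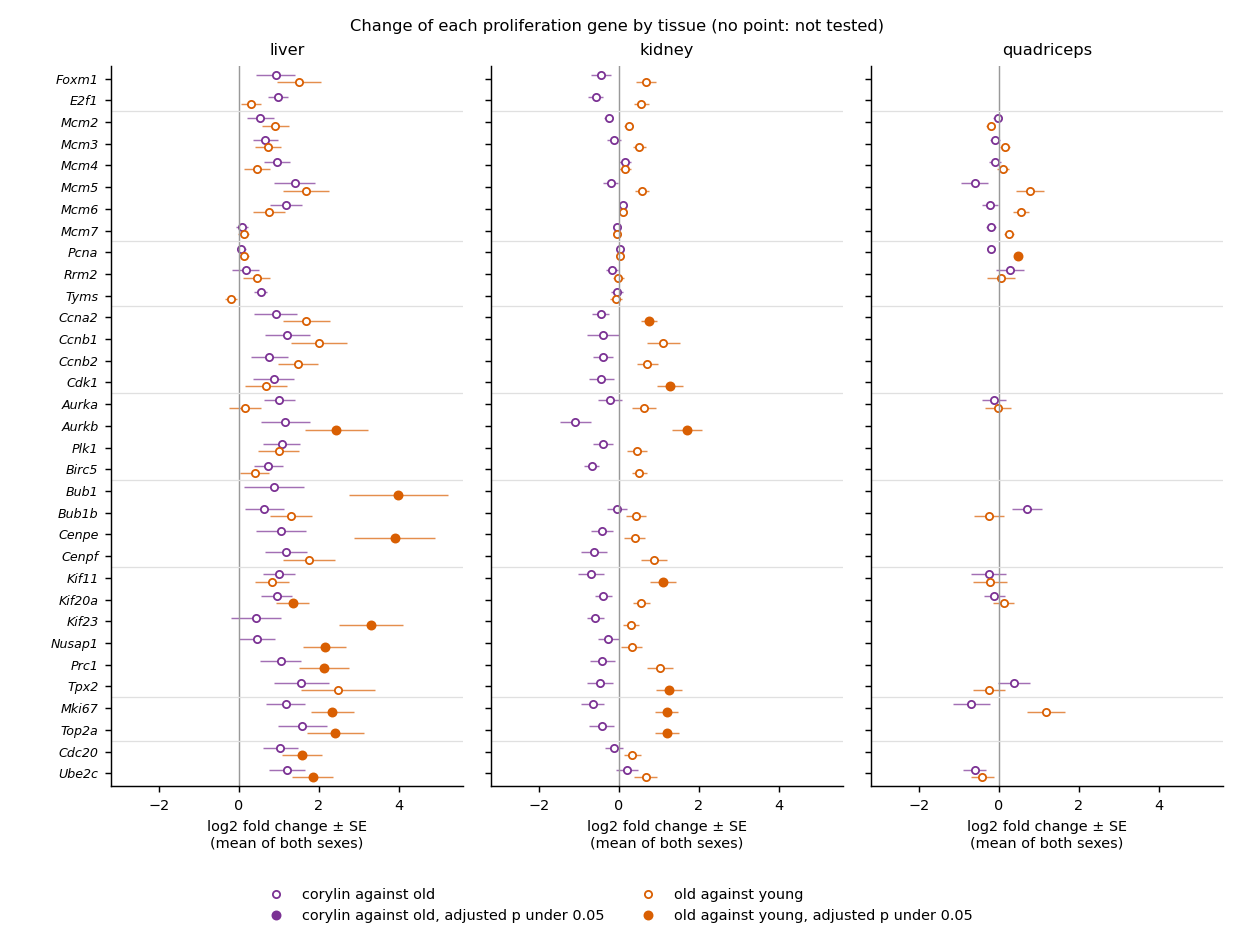
Log2 fold change with its standard error for each member, averaged over the sexes, for corylin over old and old over young mice in liver, kidney and quadriceps, with filled points where the adjusted p was under 0.05. In old over young mice 11 members are filled in liver, 7 in kidney and 1 in quadriceps, and in corylin over old mice none is filled.

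Most proliferation genes were near the limit of detection in quadriceps, where 20 of 33 members averaged under 10 reads. Old female muscle had 2 members that rose, the helicase gene Mcm6 and Pcna, where 4.5% of the 14173 genes tested rose, and none fell, where 2.17% did. Mcm6 had 5.12, 5.16 and 8.11 CPM in old females, against 2.8, 3.18 and 2.12 CPM in young females. The groups did not overlap, and the log2 fold change was 1.18 ± 0.27 (edgeR, adjusted p = 0.0277). Pcna had 23.3, 34.9 and 36.7 CPM in old females, against 20.4, 20.6 and 23.5 CPM in young females. One old library lay within the young range (log2 fold change 0.56 ± 0.14, adjusted p = 0.0354). Over both sexes Pcna alone rose (0.47 ± 0.10, adjusted p = 0.0291), where 1.98% of all genes rose. Both calls in females were lost without old female 3: Mcm6 was then 0.94 ± 0.27 (adjusted p = 0.111) and Pcna 0.44 ± 0.15 (adjusted p = 0.166), with 0.423% of all genes called higher. The call on Pcna was also lost without old female 2. Over both sexes Pcna was called in 5 of 12 fits that left out 1 library, among them that without old female 3, at 0.42 ± 0.10 (adjusted p = 0.0439), where 1.27% of all genes were called higher. Without any one of the young females there was no call in females, and without old female 1 there were 4.

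Male muscle gave 0 of 15 members in old against young mice by edgeR and by DESeq2 (0% and 3.41% of all genes), with 2 at an unadjusted p under 0.05 (18.3%). Ube2c had 12, 8.46 and 2.91 CPM in old males, against 17, 14.3 and 13.9 CPM in young males, without overlap (log2 difference -0.95 ± 0.39, adjusted p = 0.218). Pcna had 21.2, 25.2 and 25.6 CPM in old males, against 17.9, 17.2 and 19.8 CPM in young males, also without overlap (0.39 ± 0.14, adjusted p = 0.183). Mcm2 had 10.4, 9.73 and 8.93 CPM in old males, against 11.7, 11.8 and 11.3 CPM in young males, and 6.55, 6.69 and 5.89 CPM in old females, against 6.85, 6.15 and 7.94 CPM in young females. Old males lay below all young males for Mcm2, and females overlapped (-0.20 ± 0.11 over both sexes, adjusted p = 0.25). In old females macrophage markers rose for 9 of 9 tested genes, and the share of all genes that rose is given above. The macrophage sum was 1103 CPM in old female 3, and 100.8 and 126.1 CPM in the other old females. Young females had 33.7 to 67.3 CPM. The part of macrophages in the result was not tested. The median log2 difference of the members was 0.31 in females and -0.12 in males, and the difference between the sexes passed for 0 of 15 members by edgeR (0.226% of all genes) and by DESeq2 (5.05%), with 3 at an unadjusted p under 0.05 (20.1%). Mki67 in muscle had 1.76, 0.697 and 0.689 CPM in old females, against 0.0596, 0.216 and 0.412 CPM in young females, without overlap. It did not pass by edgeR and was called by DESeq2, as were 11.3% of all genes. Old males had 0.314, 0.282 and 0.474 CPM of Mki67 and young males 0.118, 0.584 and 0.229 CPM, with overlap. Top2a, too low to test, had 1.21, 0.418 and 0.689 CPM in old females, against 0.0596, 0.216 and 0.0588 CPM in young females. Mitotic genes such as Cdk1 (at most 0.275 CPM) and Ccnb1 (at most 0.159 CPM) were too low to test.

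With corylin, 0 of 15 members passed in quadriceps of females, of males or over both sexes by edgeR (0% of all genes in each), with 4, 5 and 0 members at an unadjusted p under 0.05 (17.4%, 9.74% and 7.98% of all genes). DESeq2 called 1 in females, 0 in males and 0 over both sexes (3.19%, 0.529% and 0.0212% of all genes). The gene DESeq2 called was Mcm6, which had 2.35, 2.34 and 3.12 CPM in corylin females, against 5.12, 5.16 and 8.11 CPM in old females, with no overlap. In males Mcm6 had 1.77, 2.55 and 3.55 CPM with corylin, against 1.45, 1.83 and 1.29 CPM in old males. Corylin and old males overlapped. The log2 difference of Mcm6 in females was -1.24 ± 0.27 (edgeR adjusted p = 0.119), and that of Mki67, at 0.551, 0.19 and 0.26 CPM with corylin, against 1.76, 0.697 and 0.689 CPM in old females, was -1.60 ± 0.61 (adjusted p = 0.197). In males the smallest p belonged to Ube2c (-1.27 ± 0.41, adjusted p = 0.382) and Rrm2 (1.51 ± 0.49, 0.39). Pcna had 24.4, 25.4 and 27 CPM in corylin females, against 23.3, 34.9 and 36.7 CPM in old females, and 21.4, 22.7 and 23.8 CPM in corylin males, against 21.2, 25.2 and 25.6 CPM in old males, with overlap in both sexes. Mcm2 had 6.96, 7.27 and 9.23 CPM in corylin females, against 6.55, 6.69 and 5.89 CPM in old females, and 8.75, 7.54 and 6.56 CPM in corylin males, against 10.4, 9.73 and 8.93 CPM in old males. It overlapped in neither sex, and the log2 differences were 0.29 ± 0.15 in females (adjusted p = 0.329) and -0.34 ± 0.15 in males (adjusted p = 0.479). The difference of the corylin effect between the sexes passed for 0 of 15 members by edgeR (0% of all genes), with 5 at an unadjusted p under 0.05 (19.7%), and for 2 by DESeq2 (4.19%), Mcm6 and the nucleotide enzyme gene Rrm2.

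Young females were also set against young males. In liver 0 of 33 members passed by edgeR (1.28% of all genes), with 1 at an unadjusted p under 0.05 (9.58%). DESeq2 called that gene and 2.51% of all genes. With corylin male 3 left out, edgeR called it as well (-1.48 ± 0.35, adjusted p = 0.0482), with 1.76% of all genes. It was E2f1, which had 1.54, 1.29 and 1.13 CPM in young females, against 3.35, 4.8 and 2.99 CPM in young males. In kidney 1 member was higher and 1 lower in females, where 2.37% and 3.88% of all genes were. Ube2c had 3.23, 1.28 and 2.95 CPM in young females, against 0.584, 0.975 and 0.391 CPM in young males. Cenpe, the kinetochore motor, had 0.645, 0.642 and 0.52 CPM in young females, against 2.07, 2.04 and 1.51 CPM in young males. Neither gene overlapped between the sexes, and the log2 differences were 1.90 ± 0.41 (adjusted p = 0.00961) and -1.63 ± 0.39 (adjusted p = 0.0187). The Ube2c call was lost without young female 1 alone, at an adjusted p of 0.0523, and the Cenpe call was kept in 1 of 6 such fits. Corylin and old female kidneys had 3.48 to 5.53 CPM of Ube2c, against 0.579 to 1.8 CPM in corylin and old males.

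In quadriceps 3 of 15 members were lower in young females than in young males (0.776% of all genes) and none was higher (0.423%). Ube2c had 2.03, 2.37 and 4.29 CPM in females, against 17, 14.3 and 13.9 CPM in males (log2 difference -2.38 ± 0.41, edgeR adjusted p = 0.0157). Aurka, the centrosome kinase, had 1.25, 1.35 and 2.24 CPM, against 6.6, 9.17 and 6.3 CPM (-2.19 ± 0.44, adjusted p = 0.029). Mcm2 had 6.85, 6.15 and 7.94 CPM, against 11.7, 11.8 and 11.3 CPM (-0.73 ± 0.15, adjusted p = 0.029). None of the 3 genes overlapped between the sexes, and each was called in 2 of 7 fits that left out 1 library. Ube2c shares 1662 bases with Tnnc2, the fast muscle troponin C gene on the opposite strand (chr2:164777161-164779967), which had 4052 to 10576 CPM in quadriceps. Tnnc2 had 4967, 4858 and 8715 CPM in young females, against 9753, 9586 and 10576 CPM in young males (log2 difference -0.69, adjusted p = 0.158). The strand setting of the counting is not given in the sources used here, so the reads of these genes cannot be told apart in muscle and the Ube2c values there are uncertain. Aurka and Mcm2 overlap no other protein-coding gene.

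The tissues of the 6 young mice were compared in a fit over the young libraries with the animal as a block and 1 common scale. CPM in this fit are on that scale and differ slightly from those above. Of the 30 members tested, 13 were higher and 5 lower in kidney than in liver, where 37.7% and 32% of all 17392 genes were. In quadriceps 6 were higher and 8 lower than in liver (38.1% and 39.8% of all genes). Against kidney, 5 were higher and 19 lower in quadriceps (34.1% and 44.8% of all genes). For 5 of the 30, Bub1b, Kif11, Kif20a, Mcm7 and Pcna, no pair of tissues passed. The median of all genes in the last comparison was itself -0.22, and that of the members was -1.66.

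The widest contrast was Kif23, at 4.5 ± 1.03 CPM in young kidney, against 0.171 ± 0.196 CPM in liver and 0.128 ± 0.0494 CPM in quadriceps (mean ± SD, n = 6 each). Its log2 difference was 4.73 ± 0.43 in kidney over liver (edgeR adjusted p = 5.4e-08) and -5.07 in quadriceps over kidney. Mki67 had 0.328 ± 0.237 CPM in quadriceps, 1.82 ± 0.887 CPM in kidney and 1.2 ± 0.583 CPM in liver. Mki67 was lower in quadriceps than in kidney (log2 difference -2.44, adjusted p = 1.18e-05) and than in liver (-1.92, adjusted p = 0.00035). Kidney and liver did not differ beyond their spread (0.53 ± 0.31, adjusted p = 0.145). Tyms had 0.256 ± 0.0758 CPM in quadriceps, 6.58 ± 0.64 CPM in kidney and 3.77 ± 0.583 CPM in liver. Quadriceps passed as higher than both other tissues for Mcm3, Mcm4, Ube2c, Tpx2 and Aurka. The log2 differences over liver and over kidney were 0.67 and 1.13 for Mcm3 and 1.68 and 0.72 for Mcm4. For Ube2c they were 4.90 and 3.20, with the Tnnc2 overlap given above. Tpx2 had 5.26 ± 3.06 CPM in quadriceps, 0.358 CPM in kidney and 0.146 CPM in liver, and Aurka had 5.45 ± 4.03 CPM in quadriceps and 0.631 ± 0.103 CPM in liver. The spread of both genes in muscle was wide, and it includes the difference between the sexes given above for Aurka. Pcna was at 24.1 CPM in quadriceps, 27 CPM in kidney and 27.6 CPM in liver. Per transcript length, from the deposited TPM, Pcna was at 21.1 TPM in quadriceps, 42.7 TPM in kidney and 24 TPM in liver. It exceeded Mki67 in all 3 tissues, at 0.0677 TPM in quadriceps, 0.687 TPM in kidney and 0.253 TPM in liver.

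**Figure D5:**
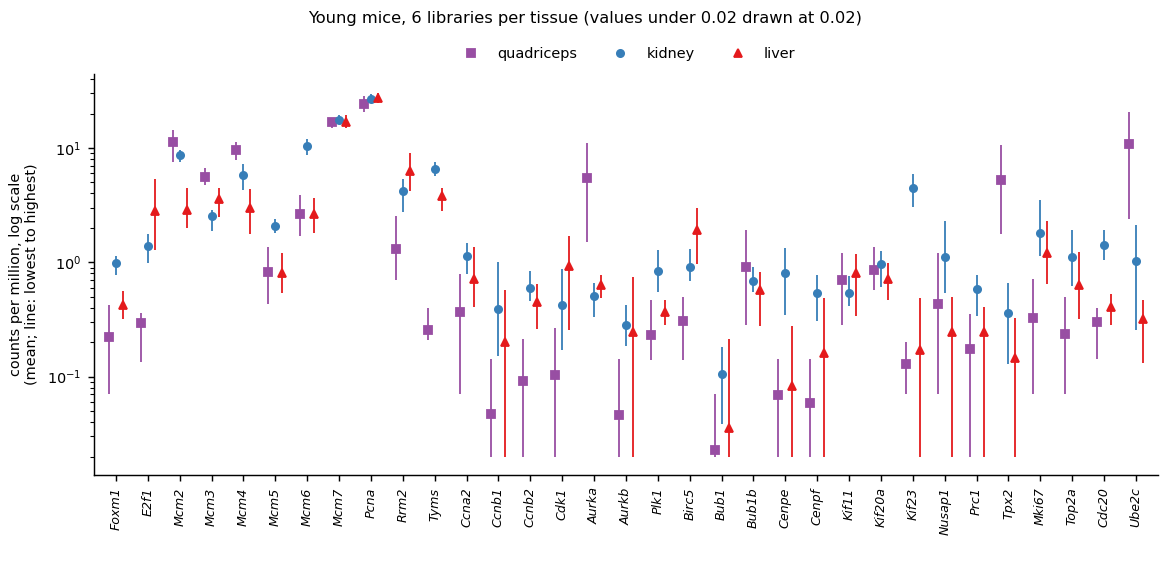
CPM on the common scale (log axis, values under 0.02 drawn at 0.02) of each member in the 6 young quadriceps, kidney and liver libraries. Kif23 averages 4.5 CPM in kidney and is at most 0.492 CPM in liver and 0.199 CPM in quadriceps, while Pcna lies between 20.8 and 30.5 CPM in all 3 tissues.

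The age effect itself was compared between tissues in a joint fit of all 53 libraries with the animal as a block. It differed for 1 of 33 members between kidney and liver (2.03% of all genes), for 2 between quadriceps and liver (3.95%) and for 0 between quadriceps and kidney (0.627%, with 4 at an unadjusted p under 0.05, where 11.9% of all genes were). Kif23 was the gene that differed between kidney and liver, with a difference of log2 fold changes of -3.06 ± 0.75 (edgeR adjusted p = 0.0253). Ube2c and Mcm2 differed between quadriceps and liver, by -2.31 (adjusted p = 0.033) and -1.10 (adjusted p = 0.0465). The age effect was lower than in liver in each case. In quadriceps Mcm2 over both sexes and Ube2c in males lay lower in old than in young mice, and neither passed. These calls depended on single animals, as Kif23 was called in 12 of 18 fits that left out 1 animal, Ube2c in 10 and Mcm2 in 4. The corylin effect differed between no pair of tissues for any member by edgeR (0.111%, 0.258% and 0% of all genes for kidney minus liver, quadriceps minus liver and quadriceps minus kidney). At an unadjusted p under 0.05, 14, 9 and 0 members differed in these comparisons (10.7%, 11% and 4.42% of all genes). Without the animal of corylin male 2, 12, 7 and 0 passed (2.14%, 1.93% and 0% of all genes), with medians of -1.55, -1.51 and -0.09. Without the animal of corylin male 3, 0 passed in each (0.116%, 0.0738% and 0% of all genes), with 2, 3 and 3 at an unadjusted p under 0.05 and medians of 0, -0.08 and 0.01. For the age effect 2, 3 and 0 members passed without that animal (3.42%, 5.42% and 0.917% of all genes), the called genes above among them.

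Of 73 further S phase and mitosis genes, 67 were tested in liver, where 10 rose and 3 fell in old mice over both sexes, against 10.9% and 8.27% of all genes. Cdt1, which loads the helicase with Cdc6, rose (log2 fold change 0.85 ± 0.19, edgeR adjusted p = 0.0098), and E2f7, a repressor of E2F targets, rose (2.85 ± 0.69, 0.0142). Mcm10, a replication initiation factor, fell (-1.20 ± 0.27, 0.011). Without corylin male 3, 21 rose and 5 fell, these 3 genes among them, against 14.3% and 11.2% of all genes. In kidney 9 of 61 rose in old females, against 7.69% of all genes, among them the tubulin gene Tubb5 (0.90 ± 0.16, 0.00155) and Mybl2, a partner in the transcription of mitotic genes (1.93 ± 0.39, 0.00421). Over both sexes 7 rose and 1 fell in kidney, against 6.64% and 2.22% of all genes. With corylin 0 of these genes passed by edgeR in either sex of any tissue, with 5 to 18 of them per tissue and sex at an unadjusted p under 0.05 apart from 1 in male quadriceps, where 7.25% to 17.4% of all genes were.

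Among 14 genes of cell cycle entry and 21 inhibitors and pocket proteins, 13 and 19 were tested in liver. In old livers over both sexes Fos, an immediate early gene, rose (1.73 ± 0.46, 0.0202), and so did Btg2, an antiproliferative p53 target (2.15 ± 0.34, 0.00275), and Rbl1, a pocket protein (1.86 ± 0.43, 0.0113). Without corylin male 3, 3 of 13 entry genes and 3 of 19 inhibitors and pocket proteins rose. They were these 3 genes with Ccnd2 (1.14 ± 0.29, 0.0111), Myc (0.92 ± 0.31, 0.0422) and Ccng1 (0.36 ± 0.11, 0.0219). In old female kidneys the cyclin Ccnd2 rose (1.33 ± 0.20, 0.000512) together with the inhibitor gene Cdkn1c (1.20 ± 0.24, 0.00386). Cdkn1a, the p21 inhibitor gene, rose in old kidneys over both sexes (0.58 ± 0.17, 0.0354). In old female quadriceps the cyclin Ccnd1 rose (2.90 ± 0.48, 0.0129). With corylin 1 gene of these lists passed in liver over both sexes, Wee1, the kinase that holds Cdk1 inactive (1.85 ± 0.41, 0.0491), and it was not called without corylin male 3 (1.87 ± 0.47, 0.0559). Without that library Mcm10 (1.13 ± 0.24, 0.0323) was higher with corylin over both sexes, and Cdkn1a was lower (-1.93 ± 0.41, 0.0359).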

How the data were processed

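Poly(A) RNA of whole liver, kidney and quadriceps was prepared with a stranded mRNA kit and sequenced as 150 bp read pairs on a NovaSeq, per the labels' protocols. The submitters' processing notes name fastp 0.20.0, FastQC 0.11.9, HISAT2 2.1.0, featureCounts 2.0.1 and the build GRCm38 (mm10); for the annotation release, the strand setting and the tool of the authors' own tests the answer is: not given in the sources used here. The deposited tables hold whole-number counts per gene, which the authors also gave as TPM, and comparison columns with log2 fold changes and p-values by the authors. Tests here used the counts, and TPM served only to compare levels between genes.

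The 33 members, the cell cycle and marker lists and the alternatives were chosen with earlier results of these data known, and nothing already seen in them counts as independent support. Values per library are given for Mki67, Top2a, Cdk1, Ccnb1, Mcm2 and Pcna and for up to 6 called members with the smallest adjusted p per comparison and direction, or for the 2 with the smallest p where none was called, and the other lists are named by up to 4 called genes per comparison. Counts were scaled by TMM and filtered with filterByExpr (at least 10 counts, total of at least 15) in edgeR 4.0.16 (R 4.3.3), with 1 quasi-likelihood fit per tissue over the 6 groups. Contrasts were corylin against old, old against young, their means and differences over the sexes, and young females against young males. Adjusted p is Benjamini-Hochberg over all genes tested, with a threshold of 0.05. The mean of both sexes weights each sex equally. Tissues were compared in joint fits with the animal as a block, tested on simulated data like the tissue fits. Summed levels carry no test.

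Alternatives were DESeq2 1.42.0, RLE size factors, no low-count filter, the library letter as covariate, letter B libraries only, the replicate number as a block, summed deposited TPM, and leaving out each library or animal. Leaving corylin male 3 of liver or old female 3 of quadriceps out of comparisons that do not use them was added after seeing the data. Library names carry a letter, B for 41 and R for 12 of the 53 libraries, whose meaning the labels do not give. All young libraries carry B, and replicate 3 of each old and corylin group carries R, so letter and group are partly confounded. Replicates are separate animals. Liver of corylin male 1 was not analysed here, since no count column matched it. By the authors' deposited table, the adjusted p was under 0.05 for 7 members in old against young female livers, 3 in males, 12 in female kidneys and 0 in male kidneys, all positive, and for 0 in corylin against old livers and kidneys. Gene coordinates are from GENCODE M21 (GRCm38).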

Additional observations from a re-analysis of the deposited data

Results flagged for a closer look

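In 3 cases the age effect of a member differed between tissues by a test of the difference itself (edgeR joint fit with the animal as a block, mean of both sexes, adjusted over all genes). For Kif23 the difference of log2 fold changes, kidney minus liver, was -3.06 ± 0.75 (adjusted p = 0.0253). In kidney the gene was 0.75 higher on the log2 scale in old males and -0.15 in old females, and neither passed. Leaving out 1 animal at a time gave values from -4.13 to -2.69, with a call in 12 of 18 fits.

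For Ube2c the difference, quadriceps minus liver, was -2.31 (adjusted p = 0.033), from -2.67 to -1.71 without single animals and with a call in 10 of 18 fits. Ube2c overlaps Tnnc2, which had 4052 to 10576 CPM in quadriceps and at most 0.586 CPM in liver, and the part of Tnnc2 reads in this difference was not tested. For Mcm2 the difference, quadriceps minus liver, was -1.10 (adjusted p = 0.0465), from -1.30 to -0.96 without single animals and with a call in 4 of 18 fits. No group of liver, kidney or quadriceps had the 4 libraries needed to test a single library against its group.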

How the results depend on the processing

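No called value changed direction under any alternative tried. Of the untested ratios, that of corylin over old mice crossed 1 in male kidneys by TPM, as given below. In male livers that ratio was 1.77, and 0.731 to 2.81 when 1 library was left out. Among the counts of members called and the ratios of summed levels, 167 values stayed within the set limits and 28 moved under the settings other than leave-one-out, and 347 stayed and 90 moved when 1 library or animal was left out. The cause was not tested in any case. In liver, members called in old against young females were 0, but 2 with the replicate block, 16 in letter B libraries only, 7 by DESeq2 and 15 without corylin male 3. In old against young males they were 0, but 3 in letter B libraries only, 3 by DESeq2 and 6 without corylin male 3. Over both sexes they were 11, but 5 with the library letter as covariate, 20 in letter B libraries only, 18 by DESeq2, 15 with the replicate block and 21 without corylin male 3. Corylin against old liver over both sexes had 0, but 1 in letter B libraries only (E2f1) and 1 by DESeq2. Females minus males, the age effect in liver differed for 0, but for 1 in letter B libraries only. Young females against young males in liver had 0, but 1 by DESeq2 and 1 without corylin male 3. In kidney, old against young over both sexes had 7 members, but 3 in letter B libraries only. In quadriceps, old against young females had 2, but 1 with no low-count filter, 0 with the letter as covariate and 0 in letter B libraries only, and over both sexes 1, but 0 and 0 with the same letter settings. Corylin against old female quadriceps had 0, but 1 by DESeq2. Females minus males, the corylin effect in quadriceps differed for 0, but for 2 by DESeq2. The age difference of kidney minus liver had 1, but 2 with no replicate block of the animal, and that of quadriceps minus liver 2, but 0 with no low-count filter.

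The ratio of summed levels, old over young, was 1.53 in female livers, 1.12 in male kidneys and 1.34 in female quadriceps by CPM, and 1.31, 1.21 and 1.68 by deposited TPM. Corylin over old it was 0.874 in female kidneys, 0.942 in male kidneys and 0.89 in female quadriceps by CPM, and 0.928, 1.03 and 0.789 by TPM. In male kidneys the TPM ratio lies above 1 and the CPM ratio below it.

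Leaving out each library of the compared groups in turn gave these ranges of members called in liver: 0 to 2 in old against young females, 4 to 11 over both sexes, 0 to 22 in corylin against old males and 0 to 24 over both sexes, the upper ends without corylin male 2. The 2 in old against young female livers came without old female 3. In kidney the ranges were 3 to 18 in old against young females, 2 to 14 over both sexes and 0 to 2 in young females against young males. In quadriceps they were 0 to 4 in old against young females, 0 to 1 over both sexes, 0 to 2 in corylin against old females, 0 to 1 for the corylin effect in females minus males and 0 to 3 in young females against young males. Between tissues the ranges were 0 to 2 for the age effect of kidney minus liver, 0 to 3 of quadriceps minus liver and 0 to 1 of quadriceps minus kidney. For the corylin effect they were 0 to 12 for kidney minus liver and 0 to 7 for quadriceps minus liver, the upper ends without the animal of corylin male 2. Summed level ratios of corylin over old mice ranged from 0.816 to 0.966 in female kidneys, 0.848 to 0.931 in female quadriceps and 0.814 to 0.887 in male quadriceps. In livers they ranged from 1.08 to 1.51 in females and from 0.731 to 2.81 in males.

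The replicate numbers name different animals in each group, and same-numbered samples did not deviate together (median correlation 0.06 in liver, 0.03 in kidney and 0.07 in quadriceps), so the block was not used as a pairing. With the replicate block old against young kidneys over both sexes had 6 members called, against 7, and young females against young males in kidney 3, against 2. The median member had 5.72 reads per library in quadriceps, and Bub1 and Cenpe had none in young female livers.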
